A study of Mus musculus with 45 samples.

Results

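Genes of mast cells and basophils were described in fetal mouse liver, where 7 symbols were listed (Mcpt8, Hdc, Cpa3, Ms4a2, Fcer1a, Prss34 and Srgn) and 6 had a row in the deposited table of 13449 genes. Fcer1a was not analysed here. Fetuses at E15.5 came from VavCre heterozygous dams, whose mates had both copies of either Rpl5 or Rps19 floxed. The groups were VavCre Rpl5flox/+, Rpl5flox/+, VavCre Rps19flox/+ and Rps19flox/+, and every control therefore carried 1 floxed allele. VavCre is active in blood cells of all lineages, not in erythroid cells alone, and no group carried VavCre without a floxed allele. Liver homogenates were treated with emetine, which holds ribosomes on mRNA, at 25 µg/mL for 15 min. Kit+ cells were taken with magnetic beads, Ter119+ cells were taken from what was left, and cells were pooled by genotype before lysis. Poly(A) RNA came from the cytoplasm (24 libraries) and the polysomes (21 libraries) of 10 to 50% sucrose gradients. Of the 16 groups 14 had 3 libraries each, VavCre Rpl5flox/+ Kit+ polysome had 1 (replicate 2) and Rpl5flox/+ Ter119+ polysome had 2.

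Mast cells and basophils store histamine, proteases and proteoglycans in granules and release them when antigen crosslinks IgE on their high-affinity receptor. Both arise from haematopoietic progenitors in which GATA2 is needed, and fetal liver is one of the sites where their precursors form before mast cells mature in tissues. Mcpt8 (mast cell protease 8) and Prss34 (mast cell protease 11) encode serine proteases that are typical of mouse basophils in spite of their names. Cpa3 encodes mast cell carboxypeptidase A, found in mast cells, basophils and their progenitors. Hdc encodes histidine decarboxylase, the enzyme that makes histamine. Ms4a2 and Fcer1a encode the beta and alpha chains of the IgE receptor. Srgn encodes serglycin, the proteoglycan core protein that holds proteases in granules, and it is expressed in most myeloid cells, so it is the least specific of the listed genes.

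The sequences before the start sites are shown for 4 genes, with matches to the GATA motif marked. GATA1 and GATA2, factors of mast cell and basophil progenitors, bind this motif. Its part in the changes below was not tested. The listed genes lay apart in the genome (GRCm38.p6, RefSeq annotation): Hdc at chr2:126593659-126624025, Cpa3 at chr3:20215616-20242209, Srgn at chr10:62493833-62527445, Mcpt8 at chr14:56082163-56085499, Prss34 at chr17:25298394-25300168 and Ms4a2 at chr19:11615517-11623790. Each window below is the 250 bases before the start given in RefSeq's promoter table, which for Mcpt8, Ms4a2 and Cpa3 lies 302, 71 and 28 bases inside the gene span above. The windows are on the gene's own strand, with GATAA or its reverse complement TTATC in capitals. The windows were chr14:56085198-56085447 (minus strand) for Mcpt8, chr17:25298144-25298393 (plus strand) for Prss34, chr19:11623720-11623969 (minus strand) for Ms4a2 and chr3:20242182-20242431 (minus strand) for Cpa3.
Mcpt8: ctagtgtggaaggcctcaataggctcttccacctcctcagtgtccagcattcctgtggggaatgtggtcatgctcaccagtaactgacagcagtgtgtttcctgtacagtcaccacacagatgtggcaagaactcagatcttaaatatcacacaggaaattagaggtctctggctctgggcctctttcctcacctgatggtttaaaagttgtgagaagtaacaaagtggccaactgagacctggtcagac
Prss34: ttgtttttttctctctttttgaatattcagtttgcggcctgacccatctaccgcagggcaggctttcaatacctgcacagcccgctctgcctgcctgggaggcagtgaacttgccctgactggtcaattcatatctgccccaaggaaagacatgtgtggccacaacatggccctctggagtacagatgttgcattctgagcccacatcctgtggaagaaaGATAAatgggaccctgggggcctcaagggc
Ms4a2: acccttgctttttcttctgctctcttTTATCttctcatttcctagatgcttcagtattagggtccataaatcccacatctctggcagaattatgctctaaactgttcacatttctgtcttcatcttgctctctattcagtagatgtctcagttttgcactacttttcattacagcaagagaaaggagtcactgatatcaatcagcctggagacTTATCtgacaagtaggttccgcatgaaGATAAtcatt
Cpa3: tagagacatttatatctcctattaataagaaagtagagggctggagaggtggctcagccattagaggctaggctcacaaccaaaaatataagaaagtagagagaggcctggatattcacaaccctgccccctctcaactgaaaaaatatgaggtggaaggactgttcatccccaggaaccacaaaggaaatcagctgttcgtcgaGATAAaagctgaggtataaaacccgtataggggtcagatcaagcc
Ms4a2 held 3 matches, Prss34 and Cpa3 held 1 each and Mcpt8 held none, a description of the letters in these windows and not of binding. On both strands, GATAA stood in 22.58% of 32851 windows of the same length and in the windows of 4 of the 7 listed genes, Fcer1a included, and in none for Hdc or Srgn. The start used for Hdc lies 5347 bases inside its gene span. Of the other motifs looked for, the Runx core ACCACA stood in 14.05% of windows and in those of 4 listed genes. The E-box CAGCTG stood in 13% and in those of 3, and the Ets core CCGGAA in 12.03% and in those of 1. The match nearest the start was 10 bases before it in Ms4a2, 30 in Prss34 and 45 in Cpa3.

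The values are normalized counts, which are reads divided by 1 size factor per library, and changes are differences of the deposited log2 values with their standard error (SE) and n. The deposited scale is compressed at low counts, so a log2 change understates the change of a gene with few reads. A gene is called here at an adjusted p of 0.05 or lower (limma, Benjamini-Hochberg over all genes tested), and p-values measure the spread between pools of fetuses. The depth was 22.9 to 70.1 M reads (Kit+ cytoplasm), 44.99 to 123.5 M (Ter119+ cytoplasm), 1.01 to 37.6 M (Kit+ polysome) and 1.02 to 39.8 M (Ter119+ polysome). Of the polysome libraries 4 had under 2 M reads: Rpl5flox/+ Kit+ replicate 3, Rps19flox/+ Kit+ replicates 1 and 3, and VavCre Rpl5flox/+ Ter119+ replicate 3. In Kit+ cytoplasm Rpl5, the targeted gene, had 530.7 ± 81.3 normalized counts in VavCre Rpl5flox/+ and 1046 ± 100 in Rpl5flox/+ (SD, n = 3 each). In Ter119+ cytoplasm it had 499.9 ± 47.0 in the libraries labelled VavCre Rpl5flox/+ and 368 ± 83.6 in Rpl5flox/+, the opposite order. Rps19 had medians of 12573.9 in VavCre Rps19flox/+ and 17767.3 in Rps19flox/+ Kit+ cytoplasm, and of 11572.8 in VavCre Rps19flox/+ and 13099.4 in Rps19flox/+ Ter119+ cytoplasm. Kit, the marker of the first sort, had 721 to 852 normalized counts in VavCre Rpl5flox/+ Ter119+ cytoplasm, against 25.7 to 83.4 in Rpl5flox/+, and 230 to 363 in VavCre Rps19flox/+, against 3.54 to 68.0 in Rps19flox/+. The Ter119+ pools of both VavCre lines therefore held more Kit mRNA than their controls, and its part in the Ter119+ results was not tested. The 8 erythroid markers listed summed to 2.17 to 3.73 M normalized counts in VavCre Rpl5flox/+ Ter119+ cytoplasm, against 7.41 to 18.1 M in Rpl5flox/+, and to 5.46 to 5.89 M in VavCre Rps19flox/+, against 9.03 to 9.67 M in Rps19flox/+, and all 8 were above 0 in every group.

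In Kit+ cytoplasm the mast cell and basophil genes were higher in VavCre Rpl5flox/+ than in Rpl5flox/+. The basophil proteases had the largest log2 changes of the 6, and those of Srgn and Hdc were 1.02 and 0.95. In bulk RNA more cells of a type and more RNA per cell cannot be told apart. Of the 6 genes 5 were called higher and 0 lower, where 20.8% of all 10908 genes tested were called higher and 16.4% lower, and the values of 4 of the 6 did not overlap between the groups, where 27.6% of all genes were higher in every VavCre library. Ms4a2 and Prss34 passed the filter on low values only through the VavCre Rpl5flox/+ libraries. With no such filter the count was also 5 of 6, where 2474 of all 13380 genes were called higher. The Kit+ pools differed in other markers too, against the same shares of all genes. Of the markers tested, 8 of 8 erythroid and 7 of 7 B-lymphoid ones were called lower. Called higher were 9 of 9 hepatocyte and 5 of 8 stem and progenitor markers. The part of these differences in the values of the 6 genes was not tested.

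Mcpt8 had 110.5, 166.4 and 61.4 normalized counts in VavCre Rpl5flox/+ Kit+ cytoplasm (replicates 1 to 3), against 18.1, 29.4 and 15.6 in Rpl5flox/+. All 3 VavCre libraries were above all 3 controls, and the log2 change was 1.82 ± 0.32 (SE, n = 3 each, limma adjusted p = 0.000686). Prss34 had 110.7, 139.1 and 51.8 in VavCre Rpl5flox/+, against 12.3, 17.0 and 12.03 in Rpl5flox/+. The groups were again apart, with a log2 change of 2.02 ± 0.30 (SE, n = 3 each, limma adjusted p = 0.000182), the largest of the 6. Hdc had 565.8, 866.8 and 412.6 in VavCre Rpl5flox/+, against 284.6, 301.1 and 307.9 in Rpl5flox/+. The control libraries lay close together and below every VavCre library (log2 change 0.95 ± 0.23, SE, n = 3 each, limma adjusted p = 0.00651). Srgn had 3823, 5401 and 3522 in VavCre Rpl5flox/+, against 2172, 2024 and 1977 in Rpl5flox/+. It did not overlap either, and its log2 change was 1.02 ± 0.15 (SE, n = 3 each, limma adjusted p = 0.000209).

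Ms4a2 had 42.5, 80.1 and 25.1 normalized counts in VavCre Rpl5flox/+ Kit+ cytoplasm, against 10.5, 31.2 and 8.80 in Rpl5flox/+. One control library lay above the lowest VavCre library, and the log2 change of 1.07 ± 0.38 had a limma adjusted p of 0.0374 (SE, n = 3 each). Cpa3 had 98.7, 213.1 and 70.3 in VavCre Rpl5flox/+, against 80.8, 82.6 and 49.9 in Rpl5flox/+. Its groups overlapped, and its log2 change of 0.63 ± 0.33 was not called (95% interval -0.07 to 1.33, limma adjusted p = 0.150). Same-numbered libraries deviated together in this comparison, and a fit with that number as block called Cpa3 (limma adjusted p = 0.0317) and thus 6 of 6 genes. That fit called 2337 of all 10908 genes higher. VavCre Rpl5flox/+ replicate 2, the shallowest cytoplasm library with 22.9 M reads, was highest for all 6 genes, and replicate 3 was lowest for all 6. Without replicate 2 the log2 changes were 1.52 for Mcpt8, 1.77 for Prss34, 0.67 for Hdc and 0.83 for Srgn, all called, while Ms4a2 fell short at 0.74 (limma adjusted p = 0.172) and Cpa3 at 0.22 (limma adjusted p = 0.606).

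**Figure D1:**
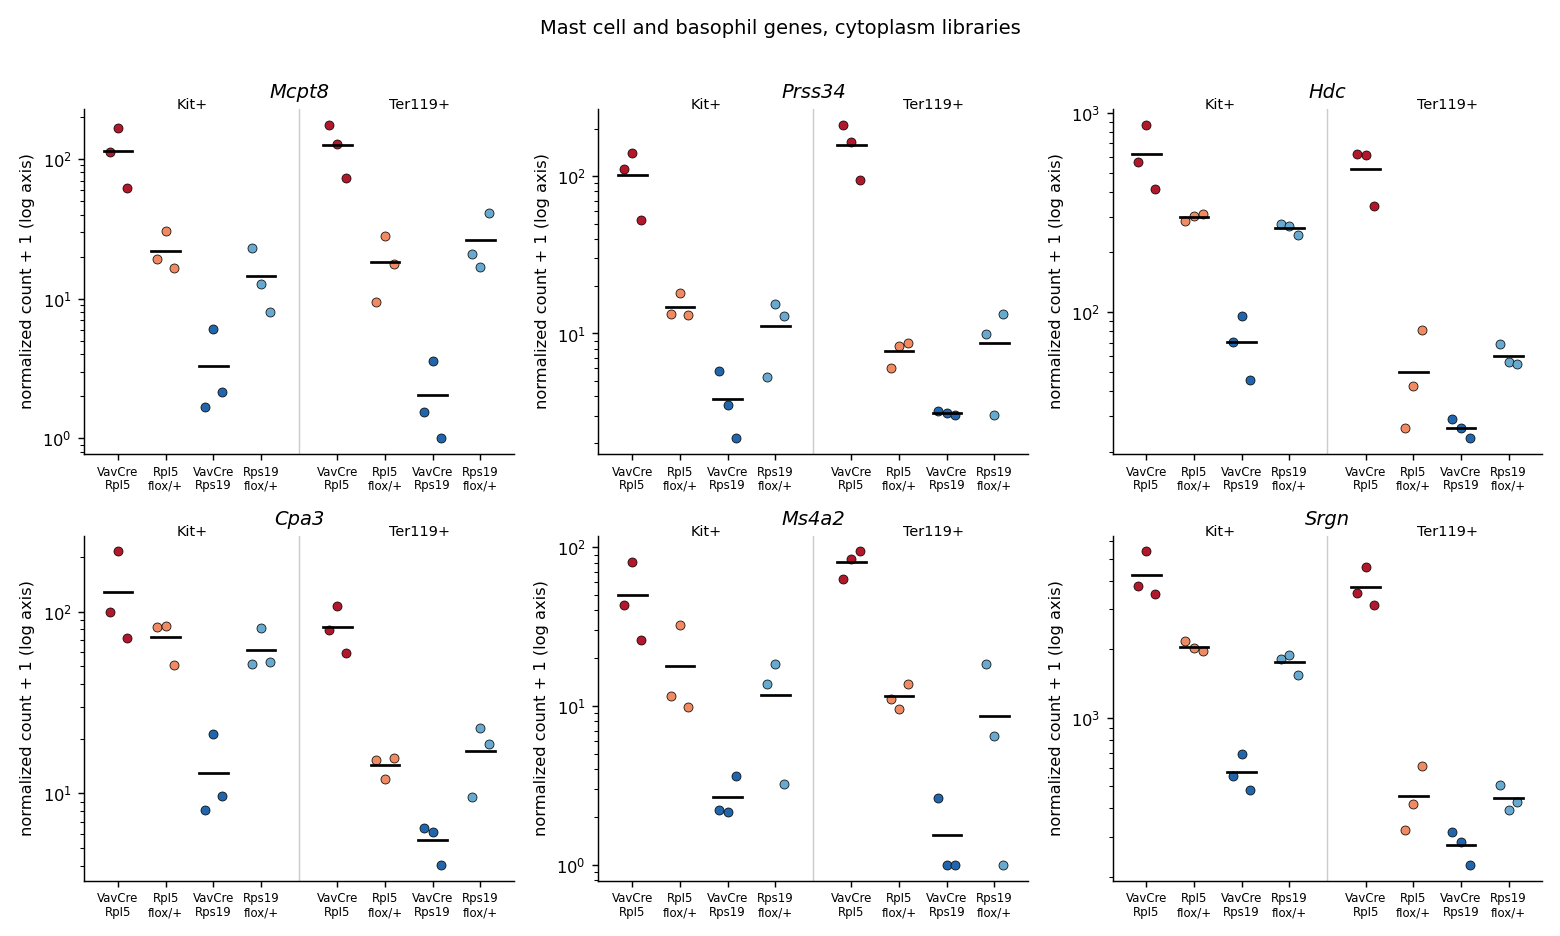
Normalized count plus 1 (log axis) of the 6 genes in the 24 cytoplasm libraries, by genotype, in Kit+ and Ter119+ cells. Points are libraries, black bars are group means, and VavCre Rpl5 and VavCre Rps19 stand for the VavCre Rpl5flox/+ and VavCre Rps19flox/+ groups. Mcpt8 lies between 61.4 and 166.4 in VavCre Rpl5flox/+ Kit+ cells, above all controls, and between 0.685 and 5.01 in VavCre Rps19flox/+ Kit+ cells, below all of them.

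In Kit+ cytoplasm with the Rps19 allele deleted, the 6 genes were lower than in the controls or not called. Srgn and Hdc had the clearest decrease, and Mcpt8 was down to 4 to 26 reads. Of the 6 genes 4 were called lower than in Rps19flox/+ and 0 higher, where 26.1% of all genes tested were called lower and 27.6% higher. The values of 4 of the 6 did not overlap between the groups, where 29.0% of all genes were lower in every VavCre library.

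Mcpt8 had 0.685, 5.01 and 1.16 normalized counts in VavCre Rps19flox/+ Kit+ cytoplasm, against 22.1, 11.8 and 7.04 in Rps19flox/+. Every VavCre library was below every control library, with a log2 change of -1.05 ± 0.32 (SE, n = 3 each, limma adjusted p = 0.0137). Without Rps19flox/+ replicate 1 this adjusted p was 0.0725. Hdc had 69.7, 94.99 and 44.6 in VavCre Rps19flox/+, against 274.7, 269.4 and 243.2 in Rps19flox/+. The groups were far apart, and Hdc changed by -1.76 ± 0.23 (SE, n = 3 each, limma adjusted p = 4.54e-05). Cpa3 had 7.12, 20.2 and 8.68 in VavCre Rps19flox/+, against 50.4, 80.5 and 51.5 in Rps19flox/+. It did not overlap and changed by -1.63 ± 0.33 (SE, n = 3 each, limma adjusted p = 0.000989). Srgn had 554.7, 692.8 and 480 in VavCre Rps19flox/+, against 1823, 1891 and 1541 in Rps19flox/+. It changed by -1.59 ± 0.15 (SE, n = 3 each, limma adjusted p = 3.42e-06), with every VavCre library below every control.

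The remaining genes of the IgE receptor and the granule had few reads with the Rps19 allele. Ms4a2 had 1.23, 1.16 and 2.60 normalized counts in VavCre Rps19flox/+ Kit+ cytoplasm, against 12.7, 17.3 and 2.24 in Rps19flox/+, and Prss34 had 4.79, 2.50 and 1.16, against 4.32, 14.4 and 11.8. Both overlapped with their controls and were not called, with log2 changes of -0.86 ± 0.38 (limma adjusted p = 0.0683) and -0.71 ± 0.30 (limma adjusted p = 0.0578; SE, n = 3 each). Ms4a2 and Prss34 passed the filter of this fit only through the VavCre Rpl5flox/+ libraries. Their call depends on the setting, and with the libraries rescaled or on log2 of the normalized count plus 1 all 6 genes were called lower. Rescaled, 5950 of all 10908 genes were called, 2445 of them higher, and the median of all genes was -0.09. On log2 of the count plus 1, 5903 were called, 3004 of them higher.

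The changes of the lines, each against its own controls, differed for all 6 genes in Kit+ cytoplasm. The Rpl5 change minus the Rps19 change was called higher for 6 of 6, where 23.2% of all genes tested were. Of these, Ms4a2 and Prss34 passed the filter of this fit only through the VavCre Rpl5flox/+ libraries. On the log2 scale it was 2.87 for Mcpt8, 2.73 for Prss34, 2.71 for Hdc, 2.61 for Srgn, 2.25 for Cpa3 and 1.93 for Ms4a2, with limma adjusted p from 4.92e-06 to 0.00884 (n = 3 in each of the 4 groups). All 6 calls held under each alternative that tested the gene.

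**Figure D2:**
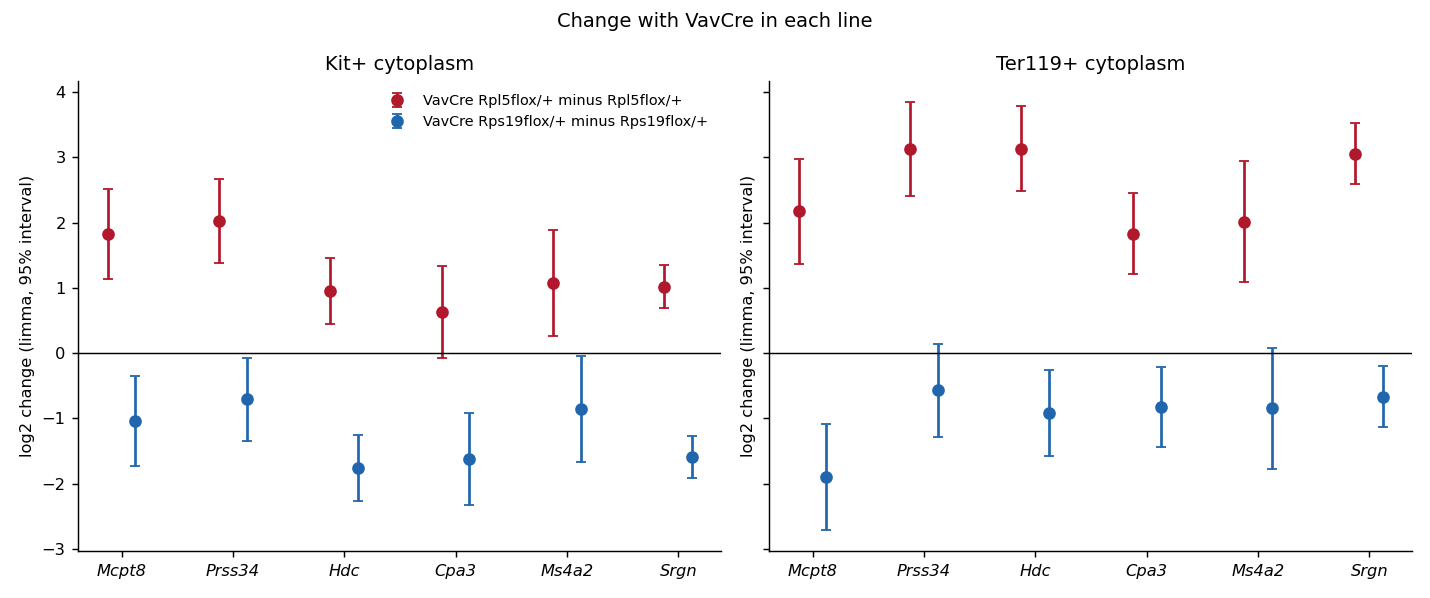
Log2 change of each of the 6 genes in cytoplasm, VavCre minus floxed control of the same line, with its 95% interval, for Kit+ and Ter119+ cells (n = 3 libraries each). The points of the Rpl5 line lie above 0, from 0.63 to 2.02 in Kit+ and from 1.83 to 3.13 in Ter119+ cells, and those of the Rps19 line lie below it.

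In Ter119+ cytoplasm all 6 genes were higher in the libraries labelled VavCre Rpl5flox/+ than in Rpl5flox/+, with log2 changes from 1.83 (Cpa3) to 3.13 (Hdc and Prss34). The direction rests on labels that the level of Rpl5 goes against in these cells, at 499.9 ± 47.0 normalized counts in the libraries labelled VavCre Rpl5flox/+ and 368 ± 83.6 in Rpl5flox/+ (SD, n = 3 each), and this holds for every Ter119+ cytoplasm result of the Rpl5 line. The called count was 6 of 6, where 35.3% of all genes tested were called higher and 30.1% lower, and 6 of 6 did not overlap between the groups, where 39.3% of all genes were higher in every VavCre library. Ms4a2 and Prss34 passed the filter only through the libraries labelled VavCre Rpl5flox/+. With no filter the count was also 6 of 6, where 4338 of all 13396 genes were called higher. The libraries labelled VavCre Rpl5flox/+ also stood apart in Kit mRNA and in the whole table: the median log2 change of all genes was 0.16, and it was 0.73 with libraries rescaled on abundant genes. Under rescaling the 6 genes were still called higher, as were 6156 of all 10939 genes tested.

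Hdc had 615.3, 608.8 and 337.4 normalized counts in the Ter119+ cytoplasm libraries labelled VavCre Rpl5flox/+, against 25.3, 41.7 and 80.2 in Rpl5flox/+. The lowest VavCre library was several times above the highest control, with a log2 change of 3.13 ± 0.30 (SE, n = 3 each, limma adjusted p = 1.28e-06). Prss34 had 211.3, 163.8 and 93.5 in those labelled VavCre Rpl5flox/+, against 5.06, 7.36 and 7.70 in Rpl5flox/+. The groups were apart by more than their own spread, and the log2 change was 3.13 ± 0.33 (SE, n = 3 each, limma adjusted p = 2.82e-06). Srgn had 3532, 4636 and 3138 in those labelled VavCre Rpl5flox/+, against 321.0, 416.9 and 612.5 in Rpl5flox/+. As normalized counts these values overlapped the range of the Kit+ pools of the same genotype (3522 to 5401), though not on the other scale given below. The log2 change of Srgn was 3.05 ± 0.22 (SE, n = 3 each, limma adjusted p = 9.96e-08).

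The other basophil protease, the IgE receptor chain and the carboxypeptidase had the same direction in Ter119+ cytoplasm. Mcpt8 had 174.6, 126.1 and 72.5 normalized counts in the libraries labelled VavCre Rpl5flox/+, against 8.43, 27.0 and 16.7 in Rpl5flox/+ (log2 change 2.17 ± 0.38, SE, n = 3 each, limma adjusted p = 0.000183). Ms4a2 had 61.8, 83.8 and 93.1 in those labelled VavCre Rpl5flox/+, against 10.1, 8.58 and 12.8 in Rpl5flox/+ (log2 change 2.01 ± 0.43, SE, n = 3 each, limma adjusted p = 0.000997). Cpa3 had 78.1, 106.2 and 58.4 in those labelled VavCre Rpl5flox/+, against 14.3, 11.03 and 14.8 in Rpl5flox/+ (log2 change 1.83 ± 0.29, SE, n = 3 each, limma adjusted p = 8.22e-05). In each of these 3 genes all VavCre libraries were above all controls. The size depends on the scale, and in RPM (reads scaled to the same total in every library) Srgn averaged 194 in the Ter119+ cytoplasm libraries labelled VavCre Rpl5flox/+ and 10.0 in Rpl5flox/+. In RPM the libraries labelled VavCre Rpl5flox/+ had 183 to 209, below the 367 to 500 of VavCre Rpl5flox/+ Kit+ cytoplasm.

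With the Rps19 allele in Ter119+ cytoplasm the genes were again lower than in the controls or not called. Of the 6 genes 4 were called lower and 0 higher, where 13.3% of all genes tested were called lower and 12.5% higher, and 4 of 6 did not overlap between the groups, where 22.1% of all genes were lower in every VavCre library. Mcpt8 had 0.549, 2.56 and 0 normalized counts in VavCre Rps19flox/+, which stand for 0 to 6 reads, against 20.0, 15.7 and 39.8 in Rps19flox/+. The groups were apart, and the log2 change was -1.90 ± 0.38 (SE, n = 3 each, limma adjusted p = 0.0029). Hdc had 27.99, 25.2 and 22.3 in VavCre Rps19flox/+, against 68.3, 55.3 and 53.9 in Rps19flox/+, and Srgn had 314.5, 281.7 and 224.1, against 503.9, 392.2 and 426.9. As normalized counts both were lower in every VavCre library, by -0.92 ± 0.30 (limma adjusted p = 0.0405) for Hdc and -0.67 ± 0.22 (limma adjusted p = 0.0378) for Srgn. In RPM the Srgn groups overlapped (7.81 to 10.8 in VavCre Rps19flox/+ and 9.86 to 12.4 in Rps19flox/+), and the Hdc groups did not.

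Cpa3 had 5.49, 5.12 and 3.04 normalized counts in VavCre Rps19flox/+ Ter119+ cytoplasm, against 8.53, 21.9 and 17.7 in Rps19flox/+, with a log2 change of -0.82 ± 0.29 (SE, n = 3 each, limma adjusted p = 0.0496). Ms4a2 had 1.65, 0 and 0 in VavCre Rps19flox/+, against 17.4, 5.47 and 0 in Rps19flox/+, and Prss34 had 2.20, 2.13 and 2.03, against 8.86, 2.05 and 12.4. Both overlapped with their controls, and neither was called, with limma adjusted p of 0.163 for Ms4a2 and 0.224 for Prss34. The calls of Hdc, Cpa3 and Srgn were close to the threshold: of the alternatives that gave them a value, Hdc lost its call in 10 of 12, Cpa3 in 9 of 11 and Srgn in 5 of 12, and Mcpt8 kept its call in each. With the replicate number as a block 2 of 6 genes were called lower, where 3394 of all 10939 genes were called, 1549 of them higher.

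The Rpl5 change minus the Rps19 change in Ter119+ cytoplasm was called higher for 6 of 6 genes, where 20.5% of all genes tested were. On the log2 scale it was 4.07 for Mcpt8, 4.05 for Hdc, 3.72 for Srgn, 3.69 for Prss34, 2.86 for Ms4a2 and 2.65 for Cpa3, with limma adjusted p from 1.16e-05 to 0.00239 (n = 3 in each of the 4 groups). The Rpl5 part of it rests on the labels that the level of Rpl5 goes against. Ms4a2 and Prss34 entered this fit too only through the libraries labelled VavCre Rpl5flox/+.

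The Ter119+ change minus the Kit+ change was then tested for each line in cytoplasm, a comparison added after earlier results were seen. The fit took Kit+ and Ter119+ libraries as independent, although they can share fetuses. Ms4a2 and Prss34 passed the filter only through the VavCre Rpl5flox/+ libraries in both cell types. With the libraries labelled VavCre Rpl5flox/+ it was called higher for 4 of 6 genes, where 25.8% of all genes tested were. The difference was 2.18 ± 0.41 for Hdc (limma adjusted p = 0.000155) and 2.04 ± 0.28 for Srgn (limma adjusted p = 6.48e-06), both of which were lower in Ter119+ than in Kit+ control cells. Cpa3 differed by 1.20 ± 0.44 (limma adjusted p = 0.0285) and Prss34 by 1.10 ± 0.45 (limma adjusted p = 0.0483), calls lost in 7 and 14 of 17 alternatives. Mcpt8 had a difference of 0.35 that was not called (95% interval -0.72 to 1.42, limma adjusted p = 0.592), and Ms4a2 had 0.94 (limma adjusted p = 0.201). With VavCre Rps19flox/+, 1 of 6 genes was called higher, where 3.93% of all genes tested were, and that was Srgn at 0.92 ± 0.28 (limma adjusted p = 0.0353), whose decrease was smaller in Ter119+ than in Kit+ cells. That call was lost in 9 of 18 alternatives.

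Without VavCre, Srgn, Hdc and Cpa3 were lower in Ter119+ than in Kit+ cytoplasm, and Mcpt8 and Ms4a2 had no called difference. In control cytoplasm 3 of 5 genes tested were lower in Ter119+ than in Kit+ cells, where 42.8% of all genes tested were called lower. Ter119+ cells were taken from what the Kit+ sort left, so these libraries can share fetuses. The fit took them as independent. The calls of Srgn, Hdc and Cpa3 held under each alternative that tested the gene, the replicate number as a block among them. Srgn averaged 450 ± 149 normalized counts in Rpl5flox/+ Ter119+ and 2058 ± 102 in Rpl5flox/+ Kit+ cells, and 441 ± 57.2 in Rps19flox/+ Ter119+ and 1752 ± 185 in Rps19flox/+ Kit+ cells (SD, n = 3 each). Its log2 difference was -2.08 ± 0.13 (limma adjusted p = 9.17e-10), that of Hdc was -2.16 ± 0.18 (limma adjusted p = 3.09e-08) and that of Cpa3 was -1.53 ± 0.19 (limma adjusted p = 2.71e-06, SE, n = 6 libraries each). The basophil protease Mcpt8 had 8.43 to 39.8 normalized counts over the 6 control Ter119+ libraries and 7.04 to 29.4 over the 6 control Kit+ libraries, ranges that overlapped. Its difference of 0.17 (limma adjusted p = 0.554) and that of Ms4a2 of -0.37 (limma adjusted p = 0.321) were not called, and Prss34 was below the filter. Rescaling the libraries moved the median of all genes to -0.58 in this comparison, against -0.13 as deposited, and under it Mcpt8 was at -0.28.

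On polysomes the genes were measured with far fewer reads, and fewer passed the filter. Of the 6 genes 4 were tested in Kit+ and 5 in Ter119+ cells, where Mcpt8 and Prss34 passed the filter only through the VavCre Rpl5flox/+ libraries. The 1 VavCre Rpl5flox/+ Kit+ polysome library had 323 normalized counts of Mcpt8, 2147 of Hdc, 166 of Cpa3, 45.6 of Prss34, 1485 of Srgn and 0 of Ms4a2. In the Rpl5flox/+ libraries Mcpt8 had 104.9, 29.2 and 159.7, Hdc 621.6, 545.9 and 665.5, Cpa3 0, 29.2 and 0, Prss34 0, 7.31 and 0, and Srgn 351.2, 160.9 and 146.4, while Ms4a2 was at 0 in all 3. The VavCre library was above every control library for the 5 genes detected in it, of which Prss34 was below the filter. The same held for 3285 of the 10557 genes that passed the filter. With 1 library, whose spread was taken from the other groups, 0 of 4 genes were called in either direction, where 1.82% of all genes tested were (limma adjusted p = 0.751 for Srgn and 0.393 for Cpa3).

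In VavCre Rps19flox/+ Kit+ polysomes Srgn had 706.7, 753.2 and 543.4 normalized counts, against 0, 277.5 and 0 in Rps19flox/+. Srgn was thus higher than its controls on polysomes and lower than its controls in cytoplasm. The controls with 0 are the libraries of 1.01 and 1.83 M reads, in which 3 reads would stand for 62.3 and 39.7 normalized counts. Of the 4 genes tested, Srgn was called higher (log2 change 4.72 ± 1.30, SE, n = 3 each, limma adjusted p = 0.0477), where 6.19% of all genes tested were and the median change of all genes was 1.11. The call was lost in 8 of 13 alternatives, and without the libraries under 2 M reads the change was 1.21 (limma adjusted p = 0.131). Hdc had 55.3, 36.8 and 23.6 in VavCre Rps19flox/+, against 83.1, 191.3 and 926.4 in Rps19flox/+. Every VavCre library was below every control library, with a change of -2.39 that was not called (limma adjusted p = 0.0937). Mcpt8, Cpa3 and Prss34 each had 0 reads in the 2 shallow control libraries and 61.2, 36.4 and 30.6 normalized counts in Rps19flox/+ replicate 2. In the VavCre Rps19flox/+ libraries these genes had 2.23 to 10.7, 11.4 to 26.2 and 0.745 to 3.27.

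In Ter119+ polysomes VavCre Rpl5flox/+ replicates 1 and 2 were high and replicate 3, with 1.02 M reads, was low for the basophil proteases. Mcpt8 had 534.0, 404.7 and 0 normalized counts in VavCre Rpl5flox/+, against 24.0 and 25.1 in Rpl5flox/+. Hdc had 1508, 804.4 and 30.5 (the last being 1 read), against 38.3 and 37.7 in Rpl5flox/+, and Prss34 had 175.9, 153.6 and 0, against 4.79 and 18.8. Here 0 of 5 genes were called in either direction, where 13.2% of all genes tested were. Without the shallow library, in which 3 reads would stand for 91.4 normalized counts, Hdc changed by 4.42 (limma adjusted p = 0.0152) and Mcpt8 by 3.65 (limma adjusted p = 0.0417), against 2.87 (limma adjusted p = 0.245) and 1.66 (limma adjusted p = 0.545) with it. In VavCre Rps19flox/+ Ter119+ polysomes Hdc had 24.1, 14.7 and 0, against 24.7, 19.6 and 88.5 in Rps19flox/+, and Srgn had 319.0, 443.3 and 250.7, against 205.7, 317.2 and 255.6. The groups overlapped, and 0 of 5 genes were called, where 0.801% of all genes tested were.

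**Figure D3:**
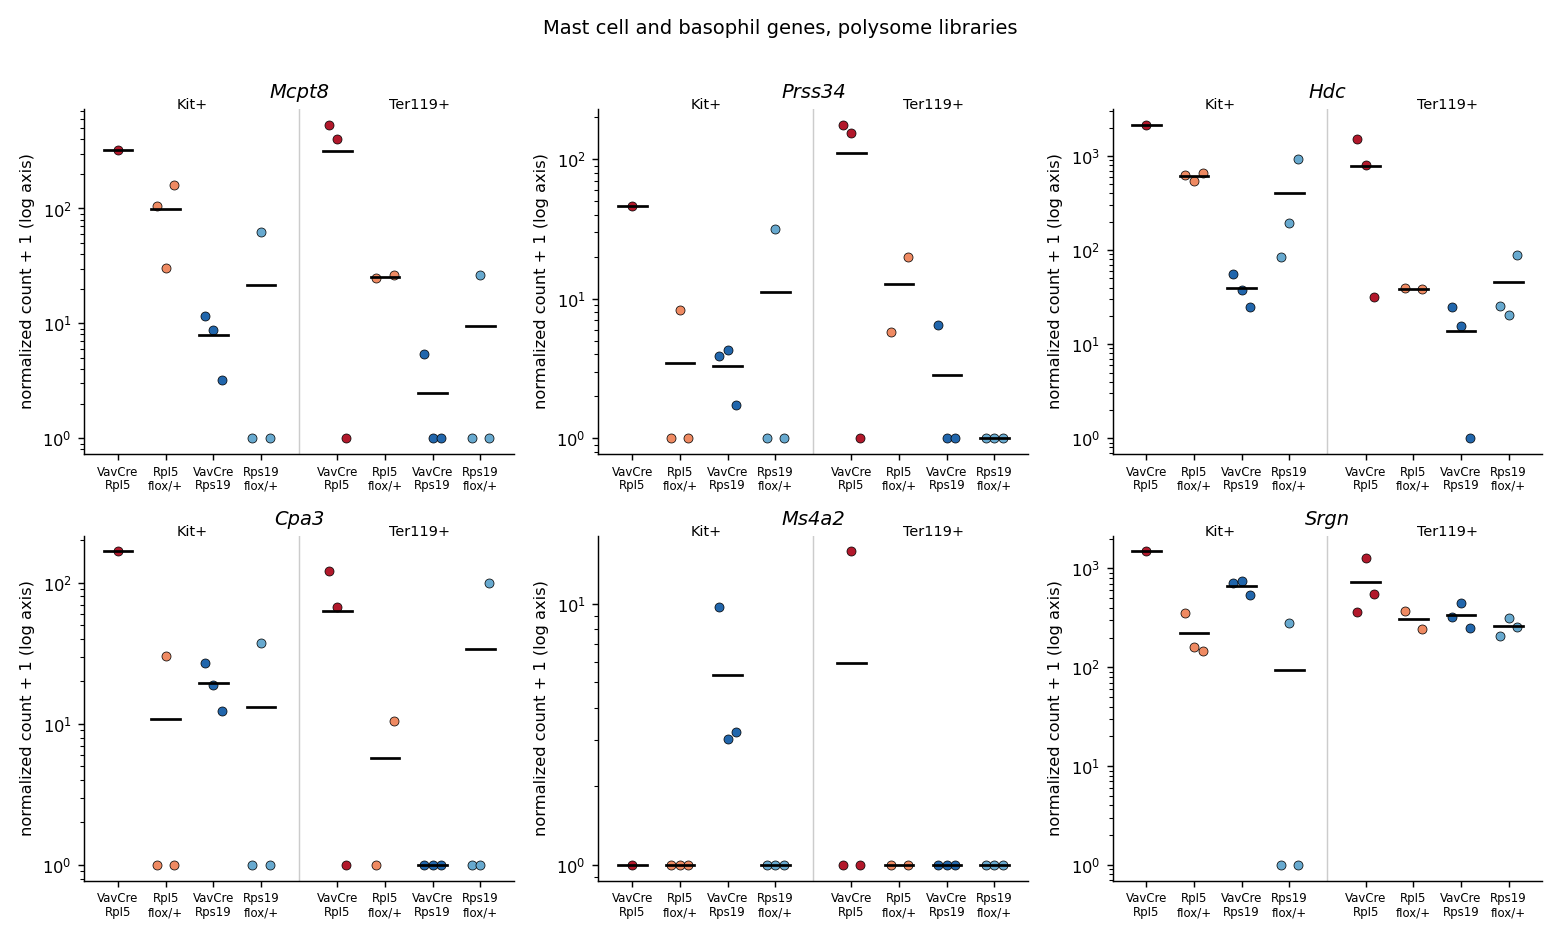
Normalized count plus 1 (log axis) of the 6 genes in the 21 polysome libraries, by genotype, in Kit+ and Ter119+ cells. Points are libraries, black bars are group means, and VavCre Rpl5 and VavCre Rps19 stand for the flox/+ groups. Several libraries lie at 0 reads, among them Rps19flox/+ Kit+ replicates 1 and 3 for Srgn, whose replicate 2 had 277.5.

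Between the cell types in control polysomes, Hdc was the 1 of 4 genes tested that was lower in Ter119+ than in Kit+ cells, where 7.33% of all genes tested were called lower (log2 difference -2.92 ± 0.79, SE, limma adjusted p = 0.0108). Srgn had a log2 difference of 2.13 that was not called (limma adjusted p = 0.147). This fit too took the libraries of the cell types as independent.

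The polysome and cytoplasm fractions of the same pools were compared next, as the level on polysomes relative to the level in cytoplasm after each library's own normalization. In control Kit+ pools 2 of 4 genes tested were lower on polysomes than in cytoplasm, where 37.4% of all genes tested were called lower. Srgn had 351.2, 160.9 and 146.4 on polysomes and 2172, 2024 and 1977 in the cytoplasm of the 3 Rpl5flox/+ pools, and 0, 277.5 and 0 on polysomes and 1823, 1891 and 1541 in the cytoplasm of the 3 Rps19flox/+ pools. Every polysome library was below every cytoplasm library, and Srgn differed by -4.68 ± 0.79 (SE, n = 6 pools, limma adjusted p = 0.00173). Without the libraries under 2 M reads it differed by -2.94 (limma adjusted p = 0.00042), and over all settings the difference lay between -5.70 and -2.94 and was called in each. Cpa3 differed by -2.51 ± 0.57 (limma adjusted p = 0.00814), which was not called without the shallow libraries (limma adjusted p = 0.112). The median of all genes was -1.32, against which these differences stand. Hdc, at 0.47 (limma adjusted p = 0.439), and Mcpt8, at 0.43 (limma adjusted p = 0.639), were not called. In control Ter119+ pools 0 of 4 genes were called in either direction, where 26.7% of all genes tested were, and Srgn was at -0.55 (limma adjusted p = 0.205).

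In VavCre Rps19flox/+ Kit+ pools Srgn was not lower on polysomes, with 706.7, 753.2 and 543.4 there and 554.7, 692.8 and 480 in cytoplasm. The Rps19 change on polysomes minus that in cytoplasm was 6.31 ± 1.41 for Srgn (SE, n = 3 pools each, limma adjusted p = 0.0345). It was the 1 of 4 genes tested that was called higher, where 10.6% of all genes tested were and the median of all genes was 1.20. Over the alternatives the difference lay between 2.92 and 8.28, and the call was lost in 6 of 13. The 0 reads of the shallow Rps19flox/+ polysome libraries enter this value, and their part was not tested beyond leaving them out. Cpa3 had a difference of 2.75 ± 0.75 (limma adjusted p = 0.0597), Mcpt8 of 1.21 and Hdc of -0.63, none of which was called.

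**Figure D4:**
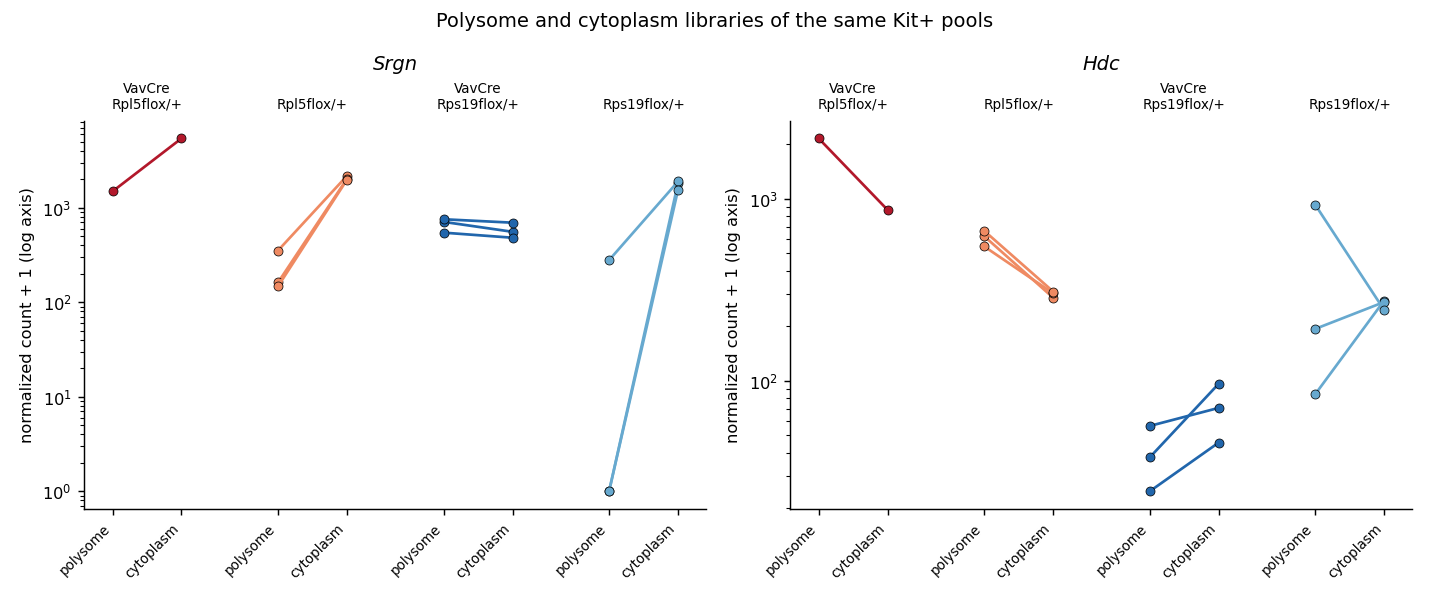
Normalized count plus 1 (log axis) of Srgn and Hdc on polysomes and in cytoplasm of the same Kit+ pools, by genotype. Points are libraries, and a line joins the fractions of 1 pool. Srgn lies at 0 to 351.2 on control polysomes, below the control cytoplasm, while in VavCre Rps19flox/+ both fractions lie between 480 and 753.2.

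Markers of mature connective tissue mast cells had no called change in the Rpl5 line. Of 6 such markers listed, 3 were in the table. Cma1, which encodes a mast cell chymase, had 16.6, 35.4 and 21.5 normalized counts in VavCre Rpl5flox/+ Kit+ cytoplasm, against 31.1, 65.1 and 27.0 in Rpl5flox/+. Its groups overlapped, with a change of -0.50 that was not called (95% interval -1.05 to 0.05, limma adjusted p = 0.145). With the replicate number as a block, an alternative added after the data were seen, Cma1 was not called either, but its 95% interval of -0.93 to -0.07 lay below 0 (limma adjusted p = 0.0665). Tpsb2, which encodes a mast cell tryptase, had 23.9, 51.4 and 20.3 in VavCre Rpl5flox/+, against 36.1, 46.2 and 26.1 in Rpl5flox/+. It overlapped too (-0.18, 95% interval -0.73 to 0.38, limma adjusted p = 0.628, and 0.551 with the block). Mcpt4, which encodes another chymase, had 3.38, 15.6 and 5.93 in VavCre Rpl5flox/+, against 2.01, 13.5 and 2.05 in Rpl5flox/+, and was below the filter. With the Rps19 allele both tested markers were lower in Kit+ cytoplasm: Cma1 had 9.04, 6.17 and 6.94 in VavCre Rps19flox/+, against 18.7, 22.0 and 28.2 in Rps19flox/+ (-0.89, limma adjusted p = 0.00986), and Tpsb2 had 11.4, 10.8 and 4.63, against 20.1, 21.6 and 26.2 (-0.78, limma adjusted p = 0.0203). Mcpt4 had 0 reads in all VavCre Rps19flox/+ Kit+ cytoplasm libraries. In Ter119+ cytoplasm, Cma1 had 1.11 to 1.66 normalized counts in the libraries labelled VavCre Rpl5flox/+ (3 to 4 reads) and was at 0 in the others.

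Of 6 further markers of basophils listed, 5 were in the table and 2, the chemokine genes Ccl3 and Ccl4, passed the filter. The cytokine genes Il4 and Il6 were read as values only. The other marker in the table, also below the filter, is not described here. Il4 had 22.2, 13.2 and 11.9 normalized counts in VavCre Rpl5flox/+, against 1.76, 3.79 and 6.75 in Rpl5flox/+, and Il6 had 20.3, 32.5 and 11.6, against 4.77, 8.52 and 6.46. Neither overlapped, and both were below the filter and not tested. Of the genes that passed the filter 27.6% were higher in every VavCre library, and the share among genes below it was not worked out. Ccl3, which macrophages and other myeloid cells also express, had 138.5, 106.1 and 152.9 in VavCre Rpl5flox/+, against 65.0, 48.8 and 88.3 in Rpl5flox/+ (0.86, limma adjusted p = 0.00534). Ccl4, which such cells express too, had 78.2, 40.1 and 56.8 in VavCre Rpl5flox/+, against 38.6, 24.1 and 39.0 in Rpl5flox/+. Its change of 0.59 was not called (limma adjusted p = 0.0523), though it was with the replicate number as a block (limma adjusted p = 0.0330), which makes 2 of 2 in place of 1. With the Rps19 allele Ccl3 had 8.35, 8.28 and 4.05 in VavCre Rps19flox/+, against 77.2, 61.8 and 60.2 in Rps19flox/+ (-2.10, limma adjusted p = 4.37e-06), and Ccl4 changed by -1.62 (limma adjusted p = 5.83e-05). In Ter119+ cytoplasm Il4 had 24.1, 24.9 and 13.5 in the libraries labelled VavCre Rpl5flox/+, against 0, 0 and 1.28 in Rpl5flox/+. It was also above its controls with the Rps19 allele, at 7.68, 4.27 and 10.6 in VavCre Rps19flox/+, against 2.30, 0 and 0 in Rps19flox/+, where Mcpt8 was below them. Ccl3 changed in Ter119+ cytoplasm by 1.69 with VavCre Rpl5flox/+ (limma adjusted p = 0.00272) and by -1.38 with VavCre Rps19flox/+ (limma adjusted p = 0.0267). Ccl4 changed there by 1.30 (limma adjusted p = 0.00577) and by -0.26, which was not called (limma adjusted p = 0.628).

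**Figure D5:**
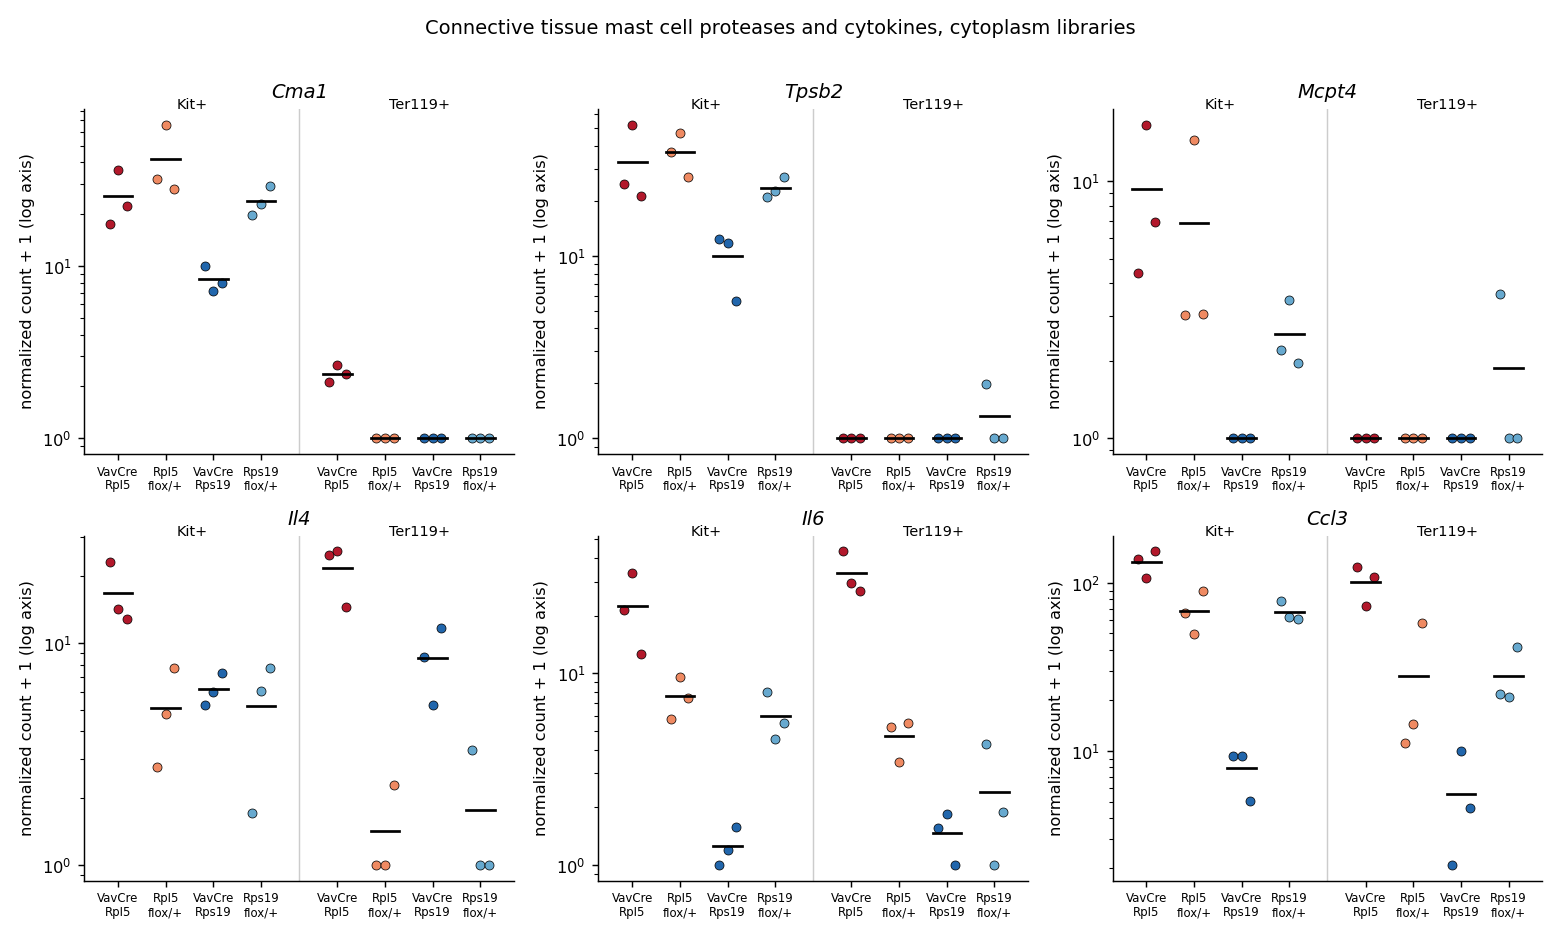
Normalized count plus 1 (log axis) of Cma1, Tpsb2 and Mcpt4 (mature mast cell proteases) and of Il4, Il6 and Ccl3 (cytokines) in the 24 cytoplasm libraries, by genotype, in Kit+ and Ter119+ cells. Points are libraries, black bars are group means, and VavCre Rpl5 and VavCre Rps19 stand for the flox/+ groups. Il4 lies between 11.9 and 22.2 in VavCre Rpl5flox/+ Kit+ cells, above its controls, while Cma1 and Tpsb2 overlap between the Rpl5 groups.

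Markers of granulocytes and monocytes and of eosinophils moved in the same directions. The 14 granulocyte and monocyte markers summed to 59112 to 116233 normalized counts in VavCre Rpl5flox/+ Kit+ cytoplasm, against 29947 to 33398 in Rpl5flox/+, and to 4032 to 8510 in VavCre Rps19flox/+, against 20400 to 28440 in Rps19flox/+. In Ter119+ cytoplasm the same sum was 53710 to 111148 in the libraries labelled VavCre Rpl5flox/+, against 9906 to 19058 in Rpl5flox/+, and 2322 to 4098 in VavCre Rps19flox/+, against 9503 to 19075 in Rps19flox/+. In Kit+ cytoplasm 10 of 14 were called higher in the Rpl5 line (median 1.35) and 14 of 14 lower in the Rps19 line (median -2.05), where 20.8% of all genes tested were called higher in the Rpl5 line and 26.1% lower in the Rps19 line. With the replicate number as a block 12 of 14 were called higher in the Rpl5 line. Eosinophil markers summed to 1020 to 1757 in VavCre Rpl5flox/+ Kit+ cytoplasm, against 723 to 895 in Rpl5flox/+, and to 49.2 to 68.2 in VavCre Rps19flox/+, against 663 to 894 in Rps19flox/+. Of 7 tested, 3 were called higher with Rpl5 and 7 lower with Rps19, against the same shares of 20.8% and 26.1% of all genes. Other myeloid lists did not move so in the Rpl5 line. Of 7 macrophage markers 2 were called higher in Kit+ cytoplasm, and 0 of 8 were called in Ter119+ cytoplasm. Of 9 megakaryocyte and platelet markers 1 was higher and 4 lower in Kit+ cytoplasm, and 0 were higher and 3 lower in Ter119+ cytoplasm. Of all genes 16.4% were lower in Kit+, and 35.3% were higher and 30.1% lower in Ter119+ cytoplasm. The part of these cells in the values of Srgn, Hdc and the other genes was not tested.

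The lists of related genes that follow are given as counts called and median log2 change, and the named changes were called. The median of all genes was 0.03 (Rpl5) and 0.01 (Rps19) in Kit+ cytoplasm, and 0.16 (Rpl5) and -0.03 (Rps19) in Ter119+ cytoplasm. The share of all genes tested that were called in the same direction stands beside each count. With the replicate number as a block no count called of these lists in the Rpl5 line moved by more than 1.5 times. Of the genes of IgE receptor signalling most were higher with VavCre Rpl5flox/+. In Kit+ cytoplasm 11 of 16 were called higher, where 20.8% of all genes were, and 0 lower (median 0.69), among them Lat, an adaptor of the receptor (2.23), Gab2, an adaptor (1.32), Vav1, an exchange factor (0.98), and Btk, a kinase (0.73). In Ter119+ cytoplasm 14 of 16 were higher, where 35.3% of all genes were, and 1 lower (median 1.23). Fcer1g, the gamma chain that the IgE receptor shares with other Fc receptors, changed by 0.59 in Kit+ (limma adjusted p = 0.0299) and by 1.31 in Ter119+ cells (limma adjusted p = 0.00242). With VavCre Rps19flox/+ the list was split, 5 of 16 higher and 7 lower in Kit+ cells, where 27.6% and 26.1% of all genes were (median -0.30): Fcer1g (-2.31), Lat2 (-1.45) and the kinase Syk (-1.19) were lower, and Gab2 (1.62) was higher. In Ter119+ cells 3 were higher and 8 lower, where 12.5% and 13.3% of all genes were (median -0.69), with Gab2 again higher (1.67).

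Of the granule and lipid mediator genes, 6 of 9 tested were called higher and 0 lower with VavCre Rpl5flox/+ in Kit+ cytoplasm, where 20.8% and 16.4% of all genes were (median 0.69), among them Ctsg, the protease cathepsin G (1.92), Alox5, the 5-lipoxygenase of leukotriene synthesis (1.75), Cd63, a granule membrane protein (1.43), and Alox5ap, the partner protein of Alox5 (1.16). Cma1 and Tpsb2, described above, are also in this list and were not called. Ctsg is also among the granulocyte and monocyte markers above. In Ter119+ cytoplasm 6 of 6 were higher, where 35.3% of all genes were (median 1.90), Ctsg by 4.30 and Cd63 by 2.99. With VavCre Rps19flox/+ 2 of 9 were higher and 7 lower in Kit+ cells, where 27.6% and 26.1% of all genes were (median -0.89), with Alox5ap at -2.08 and Cd63 at -1.84, while Alox5 rose by 1.21. In Ter119+ cells 3 of 6 were lower, where 13.3% of all genes were, and 0 higher. Alox5 was thus called higher in Kit+ cytoplasm of both lines.

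Serglycin carries heparin and chondroitin sulfate chains, and the genes that build them had no common direction. With VavCre Rpl5flox/+ 4 of 15 were higher and 4 lower in Kit+ cytoplasm (median -0.10), counts near the shares of all genes of 20.8% and 16.4%. Ndst1, a sulfotransferase of heparan sulfate, changed by 0.89 and Hs6st1, another, by -0.88. In Ter119+ cytoplasm 8 were higher and 4 lower, where 35.3% and 30.1% of all genes were (median 0.68). With VavCre Rps19flox/+ 6 were higher and 3 lower in Kit+ cells, where 27.6% and 26.1% of all genes were (median 0.15), with Ext2, a chain polymerase, at 1.02. In Ter119+ cells 3 were higher and 1 lower, where 12.5% and 13.3% of all genes were.

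Among receptors and regulators of the lineage, 11 of 21 were called higher and 4 lower with VavCre Rpl5flox/+ in Kit+ cytoplasm, where 20.8% and 16.4% of all genes were (median 0.49). Gata2 changed by 0.93 (limma adjusted p = 0.00157), and the C/EBP factors Cebpb and Cebpa by 1.39 and 1.30. Il4ra, the interleukin 4 receptor, changed by 1.02, while Il1rl1, the interleukin 33 receptor, changed by -1.15. In Ter119+ cytoplasm 16 of 19 were higher and 3 lower, where 35.3% and 30.1% of all genes were (median 1.86), among them Gata2 (2.29, limma adjusted p = 5.81e-06) and Il4ra (3.93), with Gata1 lower (-1.53). With VavCre Rps19flox/+ 3 of 21 were higher and 10 lower in Kit+ cells, where 27.6% and 26.1% of all genes were (median -0.29), Spi1, a myeloid transcription factor, by -1.39 and Stat5a by 0.80. Gata2 was not called with the Rps19 allele, at 0.06 in Kit+ (limma adjusted p = 0.801) and -0.09 in Ter119+ cells (limma adjusted p = 0.835), where 4 of the 6 genes were called lower in each cell type.

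The genes whose levels were most like the mean of the 6 genes, by Pearson correlation of log2 values over the 12 Kit+ cytoplasm libraries, were Sorl1 (r = 0.992) and Ckap4 (r = 0.991), followed by Serpinb1a, Dtx4, Cyba, Sp140, B4galt6 and Cldn15. Over the 12 Ter119+ cytoplasm libraries they were Sec11c (r = 0.994), Vav1, Arpc1b, Prtn3, Plac8, Parvg, Anxa3 and Elane (r = 0.987). The libraries share the 4 genotypes, so any gene that differs between them in the same order has a high r. For single genes in Kit+ cells, Mcpt8 was most like Batf, Gstm1 and Stap1, Hdc like Rasgrp2, Limd2 and Anxa3, Srgn like Fcgr3, Spi1 and Cmtm7, and Prss34 like Mcu, Rnaset2b and Idh1. Cpa3 was most like Sla, Igsf6 and Camk1, and Ms4a2 like A630001G21Rik, Ankrd44 and Ube2w.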

How the data were processed

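Poly(A) RNA of 45 fetal liver libraries was measured in 16 groups, taken from the labels. The authors deposited log2 values of 13449 genes, and the values themselves show a variance-stabilised scale, made from read counts that a size factor of the library divides. Inverting it gave whole reads for 100% of the values (tolerance 1e-06, largest deviation 4.66e-07), with 2.92 standing for 0 reads. The build is mm10 per the submitters' processing notes. Aligner and counter were not given in the sources used here, so how reads shared by related proteases were assigned is unknown. RefSeq tables of GRCm38.p6 held 13226 of the symbols. Of 43 replicate pairs none were copies (lowest chi-square per degree of freedom 21.8).

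Two-sided tests were made in R 4.3.3 with limma 3.58.1 (lmFit and a trended eBayes), taking the deposited log2 scale. Adjustment was by Benjamini-Hochberg over every gene tested, with a threshold of 0.05, and genes whose normalized counts averaged under 10 over the libraries of a fit were left out. The 4 genotypes of a cell type and fraction shared 1 estimate of the spread, the pool was a block where fractions were compared, and cell type comparisons had the line as a covariate. The planned scale was log2 of a normalized count plus 1, which became an alternative. Other alternatives were no filter, a filter of 50, libraries rescaled on abundant genes, limma voom on the recovered reads, the replicate number as a block, leaving out polysome libraries under 2 M reads, and leaving out each library. The block for the genes of the lists was added after the data were seen. The labels do not say that numbers pair genotypes. Deviations of same-numbered libraries correlated at 0.335 to 0.424 in Rpl5 Kit+ cytoplasm and 0.189 to 0.388 in Rpl5 Ter119+ cytoplasm, so the numbers were taken to pair those, and not in the other genotype comparisons. In Rps19 Ter119+ cytoplasm the deviations correlated at 0.501, 0.0835 and 0.104 (replicates 1 to 3), which leaves a pairing there undecided. Lists and the rule for named genes (up to 4 of a list by adjusted p, and the genes with the highest correlations) name a subset here, and the 6 genes and the lists were chosen with earlier results of these data known. The analysis was tested on simulated data.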

Additional observations from a re-analysis of the deposited data

Results flagged for a closer look

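The changes of some genes differed between cell types or fractions by a test of the difference itself (limma, adjusted over all genes tested). The Ter119+ change minus the Kit+ change with VavCre Rpl5flox/+ in cytoplasm was 2.18 for Hdc, 2.04 for Srgn, 1.20 for Cpa3 and 1.10 for Prss34. In Kit+ cytoplasm Hdc averaged 615 ± 231 normalized counts in VavCre Rpl5flox/+ and 298 ± 11.98 in Rpl5flox/+, and in Ter119+ cytoplasm 521 ± 159 in the libraries labelled VavCre Rpl5flox/+ and 49.0 ± 28.2 in Rpl5flox/+ (SD, n = 3 each). As normalized counts the VavCre levels of the cell types were close, and the control levels were not. In RPM the controls averaged 30.9 (Kit+) and 1.14 (Ter119+). The libraries labelled VavCre Rpl5flox/+ averaged 60.2 (Kit+) and 26.8 (Ter119+), with ranges that did not overlap (42.9 to 80.2 and 19.6 to 33.2). Kit mRNA was also higher in these Ter119+ pools, and Rpl5 itself was not lower in them than in their controls. The part of either was not tested.

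The same difference with VavCre Rps19flox/+ was 0.92 for Srgn, which averaged 576 ± 108 normalized counts in VavCre Rps19flox/+ and 1752 ± 185 in Rps19flox/+ Kit+ cytoplasm, and 273 ± 45.7 in VavCre Rps19flox/+ and 441 ± 57.2 in Rps19flox/+ Ter119+ cytoplasm (SD, n = 3 each). For Srgn in Kit+ cells, the Rps19 change on polysomes minus that in cytoplasm was 6.31, with 0 reads in the control polysome libraries of 1.01 and 1.83 M reads.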

How the results depend on the processing

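Over 1200 values of single genes under alternatives, 1072 kept direction and side of the threshold, 24 gained a call, 76 lost one and 28 changed sign. The cause of these changes was not tested, except that a filter of 50 leaves fewer genes to test: under it the counts called were 2 (Rpl5 Kit+ cytoplasm), 3 and 2 (difference between lines, Kit+ and Ter119+), 2 (Rpl5 Ter119+ cytoplasm), 2 (Rps19 Ter119+ cytoplasm), 2 (Ter119+ minus Kit+ change, Rpl5) and 1 (polysome against cytoplasm, control Kit+). In Rps19 Ter119+ cytoplasm 2 were called lower with no filter, with voom and with the replicate block, 1 with rescaled libraries, and 1 to 2 leaving out 1 library. The replicate numbers were not taken to pair those libraries, though the labels do not settle it. The block gave 0 calls in place of 1 for Rps19 Kit+ polysomes and 1 in place of 0 for Rpl5 Ter119+ polysomes, where 943 of 10557 and 1999 of 10614 genes were called. Of the 6 genes it changed 1 call in Rpl5 Kit+ cytoplasm (Cpa3).

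On Rps19 Kit+ polysomes the count called higher was 0 on log2 of the count plus 1, 2 with no filter, 0 without libraries under 2 M reads and 0 to 1 leaving out 1 library, and the count called lower was 1 with voom, 1 without the shallow libraries and 0 to 1 leaving out 1. Without those libraries 2 genes were called higher on Rpl5 Ter119+ polysomes (0 to 2 leaving out 1 library), where 578 of all 10649 genes tested were. On Rpl5 Kit+ polysomes, with 1 VavCre library, the log2 change of Srgn lay between 2.56 and 3.16 over the alternatives. Between the cell types on control polysomes 0 to 1 were higher leaving out 1 library. Polysome against cytoplasm gave 4 lower with no filter and 1 without shallow libraries in Kit+ and 1 with no filter in Ter119+ cells. Of all genes 6554 of 13329, 4236 of 10746 and 2989 of 13225 were called there, of which 12.7%, 23.8% and 16.5% were higher. The Rps19 fraction difference gave 0 on log2 of the count plus 1, 2 with no filter and 0 to 2 leaving out 1. With no filter 1676 of all 13376 genes were called higher in this difference, and 1810 of 13297 on Rps19 Kit+ polysomes. The Ter119+ minus Kit+ change gave 2 (Rpl5) and 0 (Rps19) with voom, and 2 to 4 and 0 to 1 leaving out 1.

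Signs turned only for genes that were not called. On Rps19 Kit+ polysomes Mcpt8 was at -1.55 with voom, -2.05 without shallow libraries and -0.39 to 1.27 leaving out 1 library, and Cpa3 at -0.69 without shallow libraries. On Rps19 Ter119+ polysomes Prss34 was at -0.88 with voom and Mcpt8 at -0.82 to 0.36 leaving out 1. Between cell types Mcpt8 was at -0.28 rescaled in cytoplasm, and Cpa3 on polysomes at -0.19 rescaled, -0.85 with voom, -0.89 without shallow libraries and -0.068 to 0.62 leaving out 1. Polysome against cytoplasm gave Mcpt8 -0.0055 to 0.96 leaving out 1 Kit+ pool and Hdc 0.18 rescaled in Ter119+ cells. The Rps19 fraction difference gave Mcpt8 -1.06 without shallow libraries and Hdc -1.38 to 0.33 leaving out 1. The Ter119+ minus Kit+ change with Rps19 gave Ms4a2 -0.90 with voom and -0.52 to 0.48 leaving out 1, and Prss34 -0.15 to 0.38.

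Rescaling moved the share of called genes that were higher from 54.0% to 76.0% (Rpl5 Ter119+ cytoplasm), 51.4% to 41.1% (Rps19 Kit+), 48.4% to 62.2% (Rps19 Ter119+), 48.1% to 61.5% and 49.5% to 75.8% (difference between lines, Kit+ and Ter119+), 45.6% to 29.7% and 69.1% to 54.8% (cell types, cytoplasm and polysome), 22.3% to 55.6% (Rpl5 Ter119+ polysome), 18.03% to 50.8% (fractions, Ter119+), and 53.3% to 65.5% and 32.0% to 53.5% (Ter119+ minus Kit+ change, Rpl5 and Rps19). Rpl5 Kit+ polysomes without their lone VavCre library gave no value.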
